A study of Mus musculus with 12 samples.

Results

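The genes described here carry heme breakdown, iron storage and systemic iron control in the liver. They are the 10 rows of the deposited count table, of 24411 genes in all, whose symbol is Hmox1, Blvra, Blvrb, Ftl1, Fth1, Hamp, Hamp2, Slc40a1, Tfrc or Trf. All 10 were found and all 10 passed the filter on low counts, as did 13922 genes in total. mRNA-seq was performed on whole livers of 3 cont., 3 Atg7-KO and 3 Atg7-KO;p62T352A mice at 3 months of age. The cont. mice were Atg7flox/flox, the Atg7-KO mice Atg7flox/flox;Alb-Cre and the third group Atg7flox/flox;Alb-Cre;p62T352A/p62T352A, all on a C57BL/6 background. All 3 genotypes thus carried the floxed Atg7 alleles, and Cre was driven by the albumin promoter, which is active in hepatocytes, and Atg7 was not measured by cell type. Atg7 encodes an enzyme needed to form autophagosomes. p62, encoded by Sqstm1, is a selective autophagy receptor that binds KEAP1, the inhibitor of the transcription factor NRF2. The knock-in mice were made by prime editing of embryonic stem cells. The comparisons ask how loss of Atg7 in hepatocytes changes these transcripts, and how the p62T352A allele changes them when Atg7 is lost.

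Heme released from haemoglobin and other heme proteins is opened by heme oxygenase-1 (Hmox1) to biliverdin, carbon monoxide and iron, and biliverdin reductases (Blvra, Blvrb) then make bilirubin. The freed iron is stored inside ferritin, a shell of light (Ftl1) and heavy (Fth1) chains, or leaves the cell through ferroportin (Slc40a1). The hepatocyte hormone hepcidin (Hamp) binds ferroportin and sends it to degradation, transferrin (Trf) carries iron in plasma, and transferrin receptor 1 (Tfrc) takes it up. In the liver, hepatocytes store iron and make hepcidin and transferrin, while Kupffer cells, the resident macrophages, clear old red cells.

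Libraries held 9671073 to 23285134 counts, and the deepest and the shallowest were both cont. mice. Atg7 was at 44.2 to 55.4 normalized CPM (counts scaled to library size by TMM) in cont., at 9.57 to 12.0 in Atg7-KO and at 27.4 to 29.7 in Atg7-KO;p62T352A mice. It was thus lowest in the Atg7-KO mice, 4.60-fold below cont. (edgeR quasi-likelihood test, FDR 2.55e-05), and lay between the other genotypes in the Atg7-KO;p62T352A mice, 2.73-fold above Atg7-KO (FDR 0.000164). The p62T352A allele and the higher Atg7 transcript level came together in all 3 mice. Their parts in a difference from Atg7-KO cannot be told apart from these RNA values. At the protein level, the paper reports hardly any ATG7 or LC3-II in Atg7-KO livers, with or without a p62 mutation. It reads this as a block of autophagy. Nqo1, a classic NRF2 target, was at 6.36 to 12.2, 175 to 249 and 11.7 to 18.4 CPM in cont., Atg7-KO and Atg7-KO;p62T352A livers. Sqstm1 was at 387 ± 103, 914 ± 44.2 and 545 ± 71.1 CPM (mean ± SD, n = 3). In each genotype the mouse numbered 1 had at most 27.7 Xist counts and the others at least 8578, so the genotypes were alike in this respect. All 13 macrophage markers listed in the methods were detected in every genotype. Their summed level was 386 to 529 CPM in cont., 1442 to 1573 in Atg7-KO livers and 290 to 613 with p62T352A added. Against cont., Atg7-KO livers had 10 of the 13 called higher and 1, Timd4, called lower, beside 21.6% and 22.1% of all tested genes. The 8 hepatocyte markers summed to 86820 to 140900, 40030 to 42700 and 120400 to 142700 CPM. All 8 were called lower in Atg7-KO, beside the same 22.1%. The 7 red cell markers in the table summed to 519 to 1119, 314 to 378 and 558 to 892 CPM, and the 6 sinusoidal endothelial markers to 263 to 323, 249.5 to 260.5 and 136 to 167 CPM. No marker was at 0 in a whole group. In whole liver, fewer cells of a type and less RNA per cell cannot be told apart.

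In Atg7-KO livers, 6 of the 10 genes were called higher than in cont. (Hmox1, Blvrb, Ftl1, Fth1, Slc40a1 and Tfrc) and 2 lower (Hamp and Hamp2). Calls needed an FDR (Benjamini-Hochberg) below 0.05 together with a change of more than 1.5-fold, and 21.6% of all tested genes were called higher and 22.1% lower in this comparison. The 3 Atg7-KO mice lay above all 3 cont. mice for those 6 genes and below them for those 2, as for 29.2% and 26.3% of all tested genes. Over the 10 genes the median log2 change was 1.22, beside -0.03 over all tested genes. In Atg7-KO;p62T352A livers against Atg7-KO, 5 of the 10 were called lower (Hmox1, Blvrb, Fth1, Slc40a1 and Tfrc) and 2 higher (Hamp and Hamp2), with a background of 26.2% lower and 24.7% higher. The groups did not overlap for 6 genes with lower and 2 with higher levels, beside 36.8% and 36.4% of all tested genes. Against cont., 1 gene, Ftl1, was called higher in Atg7-KO;p62T352A livers, beside 6.25% of all tested genes. The groups did not overlap for Ftl1 and Blvrb, both higher, beside 15.5% of all tested genes above and 11.2% below. None of the 10 was called lower there by edgeR, DESeq2 gave the same count, and none had a lower level at an unadjusted p under 0.05, while 5.34% of all genes were called lower. The first and the last comparison share the cont. mice, and the first and the second share the Atg7-KO mice, so the comparisons are not independent of each other.

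**Figure D1:**
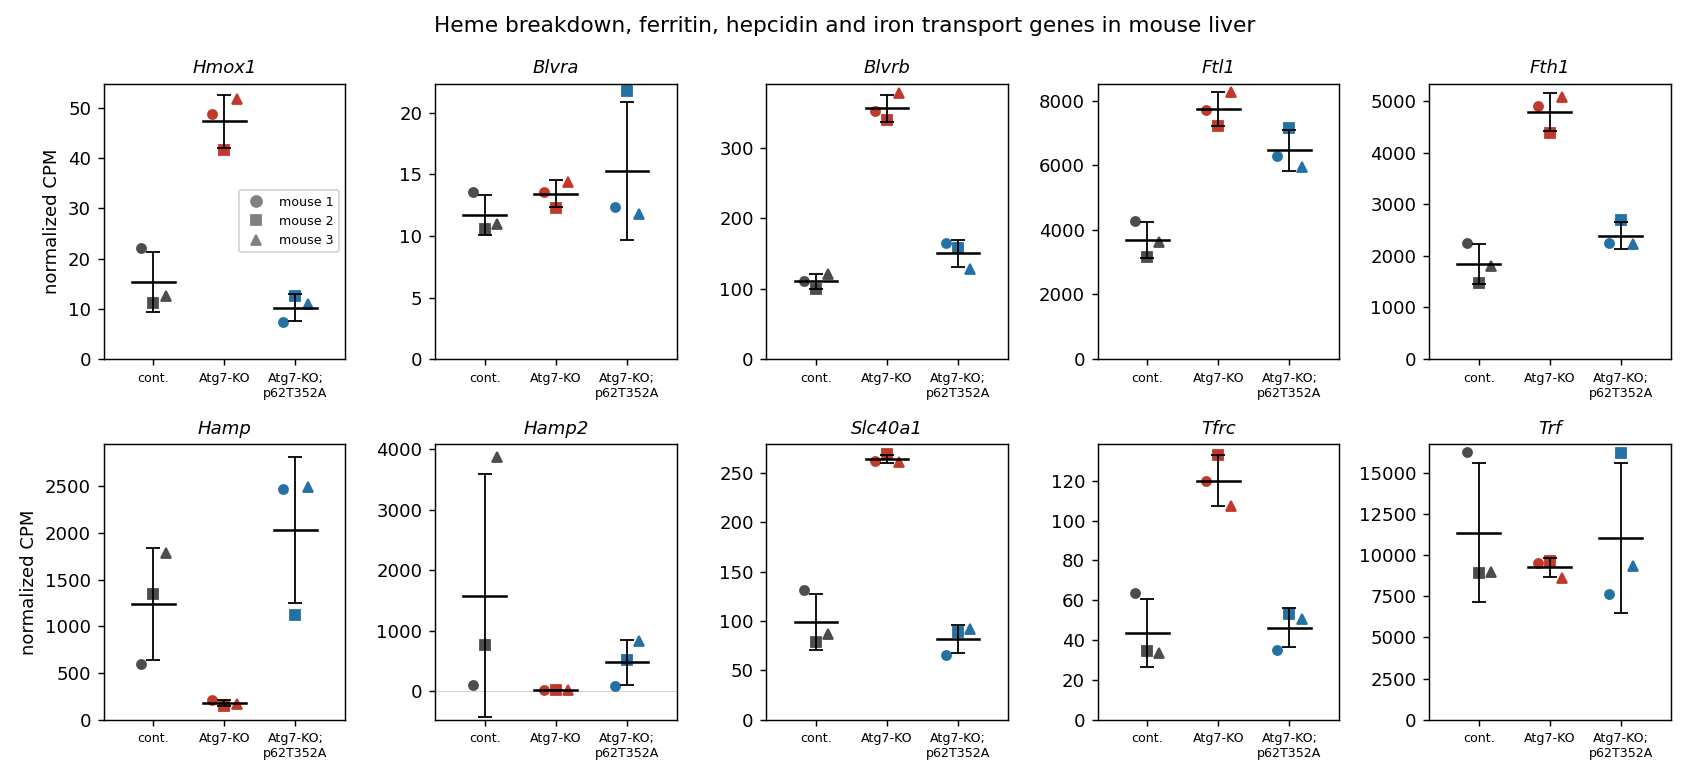
Normalized CPM (y axis, linear, a scale of its own in each panel) of the 10 genes in each of 3 cont., 3 Atg7-KO and 3 Atg7-KO;p62T352A mice. Symbols are single mice, horizontal lines means and error bars SD (n = 3). In the panels of Hmox1, Blvrb, Fth1, Slc40a1 and Tfrc all 3 Atg7-KO mice stand above all 6 others, and in those of Hamp and Hamp2 below all 6.

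Heme oxygenase-1 and one of the biliverdin reductases moved together. Hmox1 was at 22.2, 11.1 and 12.6 CPM in cont. mice 1 to 3, at 48.7, 41.5 and 51.8 in Atg7-KO mice and at 7.28, 12.5 and 10.9 in Atg7-KO;p62T352A mice. Every Atg7-KO mouse was above every other mouse, whereas the other genotypes overlapped. Hmox1 rose 3.08-fold in Atg7-KO against cont. (log2 fold change 1.62, SE 0.29, edgeR FDR 0.00188). It was 4.62-fold lower in Atg7-KO;p62T352A than in Atg7-KO livers (log2 -2.21, SE 0.30, edgeR FDR 0.000345). Against cont. it was not called (log2 -0.59, SE 0.29, edgeR FDR 0.221).

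Blvrb, which reduces biliverdin and flavins, was at 111, 99.5 and 120.1 CPM in cont., at 352.1, 339 and 377 in Atg7-KO and at 164, 158 and 127.5 in Atg7-KO;p62T352A mice. The 3 genotypes did not overlap, with cont. lowest. The rise in Atg7-KO was 3.23-fold (log2 1.69, SE 0.18, edgeR FDR 0.000105), and the level in Atg7-KO;p62T352A was 2.38-fold below Atg7-KO (log2 -1.25, SE 0.17, edgeR FDR 0.000384). All 3 Atg7-KO;p62T352A mice lay above all 3 cont. mice, without a call (log2 0.44, edgeR FDR 0.123). Blvra, the reductase that makes the main bilirubin isomer of adults, behaved differently. It was at 13.6, 10.6 and 11.0 CPM in cont., at 13.6, 12.2 and 14.4 in Atg7-KO and at 12.4, 21.8 and 11.8 in Atg7-KO;p62T352A mice. The groups overlapped in all 3 comparisons, and none was called (log2 0.19, 0.19 and 0.38, edgeR FDR 0.553, 0.539 and 0.356). Atg7-KO;p62T352A mouse 2 was the highest of the 9 mice, and the Blvra difference from Atg7-KO turned to -0.15 without it.

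Hmox1 and Slc40a1 are expressed in macrophages as well as in hepatocytes. Their levels and the summed macrophage markers were both highest in the 3 Atg7-KO mice, and the part of those cells in either result was not tested.

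Both ferritin chains rose in Atg7-KO livers, but they parted in Atg7-KO;p62T352A livers. Ftl1, the light chain, which helps to form the iron core, was at 4288, 3170 and 3640 CPM in cont., at 7718, 7234 and 8275 in Atg7-KO and at 6296, 7164 and 5937 in Atg7-KO;p62T352A mice. The 3 genotypes did not overlap. Ftl1 rose 2.09-fold in Atg7-KO (log2 1.07, SE 0.21, edgeR FDR 0.00336), and the Atg7-KO;p62T352A level, although below Atg7-KO in all mice, was not called lower (log2 -0.26, SE 0.21, edgeR FDR 0.322). Against cont., Ftl1 was called 1.75-fold higher in Atg7-KO;p62T352A livers (log2 0.81, SE 0.21, edgeR FDR 0.0387). That call was lost in 13 of 18 alternative analyses, with a log2 fold change of 0.63 to 0.95 and an FDR of 0.000833 to 0.434. Leaving out any single mouse other than cont. mouse 1 ended it (edgeR FDR 0.066 to 0.151), and without cont. mouse 1 it held (FDR 0.0119).

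Fth1, the heavy chain with the ferroxidase site, was at 2248, 1477 and 1803 CPM in cont., at 4900, 4378 and 5084 in Atg7-KO and at 2250, 2696 and 2223 in Atg7-KO;p62T352A mice. The Atg7-KO mice stood above all others, and Atg7-KO;p62T352A mice overlapped with cont. at its upper end. Fth1 rose 2.60-fold in Atg7-KO (log2 1.38, SE 0.23, edgeR FDR 0.00114) and was 2.00-fold lower in Atg7-KO;p62T352A than in Atg7-KO livers (log2 -1.00, SE 0.22, edgeR FDR 0.00446). Against cont. it was not called (log2 0.38, SE 0.22, edgeR FDR 0.301).

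The balance of both chains separated the genotypes mouse by mouse. Ftl1 made up 65.6, 68.2 and 66.9% of the summed Ftl1 and Fth1 counts in cont., 61.2, 62.3 and 61.9% in Atg7-KO and 73.7, 72.7 and 72.8% in Atg7-KO;p62T352A mice. No pair of genotypes overlapped. The share was 5.1 percentage points lower in Atg7-KO than in cont., 11.2 points higher in Atg7-KO;p62T352A than in Atg7-KO and 6.13 points higher than in cont. Each difference gave p = 0.1 in a two-sided exact permutation test over the mice, the smallest value that 3 against 3 mice allow. Ftl1 counts carry a limit of their own, since 84.8% of the 75-base stretches of its transcript recur in the processed copies Ftl1-ps1, Gm10252 and Gm15590, and reads there can be divided among them. For Fth1 the shared stretches were 3.86%.

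Ferritin and ferroportin mRNAs carry an iron-responsive element (IRE) before the coding sequence and Tfrc mRNA several behind it. An IRE is a short hairpin bound by iron-regulatory proteins when iron is low. Bound ahead of the start codon it blocks translation, and bound behind the stop codon it protects the mRNA from decay. Transcript levels do not measure the translation of ferritin or ferroportin. The 10 principal transcripts (GENCODE on GRCm38) were searched for a stem of 5 pairs, a loop, an unpaired C and at least 3 lower pairs. The loop was CAGTG followed by A, C or T, and G with T counted as a pair. The search found 7 sites in 4 genes, beside 0.262% of 22500 principal transcripts with a match. The sites are printed because these 4 genes share them. Ferritin, ferroportin and Tfrc were chosen as iron genes and their mRNAs are known to carry IREs, so the matches are no independent result. Capitals mark the loop of 6 bases, 5′ to 3′.

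Sites in the 5′ UTR, 1 in each of Ftl1, Fth1 and Slc40a1, were as follows.
Ftl1, chr7:45459780-45459806, minus strand: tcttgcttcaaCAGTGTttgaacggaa
Fth1, chr19:9982733-9982759, plus strand: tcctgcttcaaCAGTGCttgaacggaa
Slc40a1, chr1:45925466-45925492, minus strand: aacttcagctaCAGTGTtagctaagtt

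Sites in the 3′ UTR of Tfrc numbered 4.
Tfrc, chr16:32631220-32631246, plus strand: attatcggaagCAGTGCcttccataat
Tfrc, chr16:32631599-32631625, plus strand: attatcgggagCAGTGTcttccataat
Tfrc, chr16:32631664-32631690, plus strand: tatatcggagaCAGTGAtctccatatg
Tfrc, chr16:32631711-32631737, plus strand: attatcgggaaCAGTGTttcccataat

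Those 4 genes all rose in Atg7-KO livers, and the part of the elements in these levels was not tested. Slc40a1 (chr1:45908068-45926523, minus strand), the only known exporter of cellular iron, was at 131.3, 79.2 and 86.5 CPM in cont., at 262, 269 and 261 in Atg7-KO and at 65.9, 89.0 and 91.8 in Atg7-KO;p62T352A mice. The Atg7-KO mice lay within a narrow band at 264 ± 4.13 (SD, n = 3), far above the others, which overlapped. Slc40a1 rose 2.67-fold (log2 1.41, SE 0.23, edgeR FDR 0.00107) and was 3.21-fold lower in Atg7-KO;p62T352A than in Atg7-KO livers (log2 -1.68, SE 0.23, edgeR FDR 0.000365). Against cont. the log2 difference was -0.27 (SE 0.23, edgeR FDR 0.472).

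Tfrc (chr16:32608920-32632794, plus strand) was at 63.4, 34.5 and 33.3 CPM in cont., at 119.8, 132.9 and 107 in Atg7-KO and at 35.0, 53.0 and 50.7 in Atg7-KO;p62T352A mice. The Atg7-KO mice were again the highest, and cont. mouse 1 stood above the other 5 mice without the rise. Tfrc rose 2.74-fold (log2 1.45, SE 0.28, edgeR FDR 0.00262) and was 2.59-fold lower in Atg7-KO;p62T352A than in Atg7-KO livers (log2 -1.38, SE 0.28, edgeR FDR 0.00273). Against cont. the log2 difference was 0.08 (SE 0.27, edgeR FDR 0.889), and with the 3 mice numbered 1 left out it was called higher (0.61, FDR 0.039). Red cell precursors use Tfrc heavily. The summed red cell markers were lowest in the Atg7-KO mice, although 1 of them, Hba-a1, had its highest mean there (192 CPM, beside 72.3 in cont. and 0.36 in Atg7-KO;p62T352A), and its reads can be shared with Hba-a2. The part of red cell precursors in the Tfrc result was not tested.

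Trf, a major product of hepatocytes, was at 16230, 8886 and 8964 CPM in cont., at 9487, 9646 and 8611 in Atg7-KO and at 7613, 16180 and 9322 in Atg7-KO;p62T352A mice. One mouse in each of cont. and Atg7-KO;p62T352A stood far above the rest, and all groups overlapped. No comparison was called (log2 -0.30, 0.26 and -0.04, SE 0.35 in each, edgeR FDR 0.506, 0.553 and 0.955), and without cont. mouse 1 the difference of Atg7-KO from cont. was 0.05. For Trf, 78.6% of the 75-base stretches also lie in the overlapping gene model Gm20425, which was not analysed here.

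**Figure D2:**
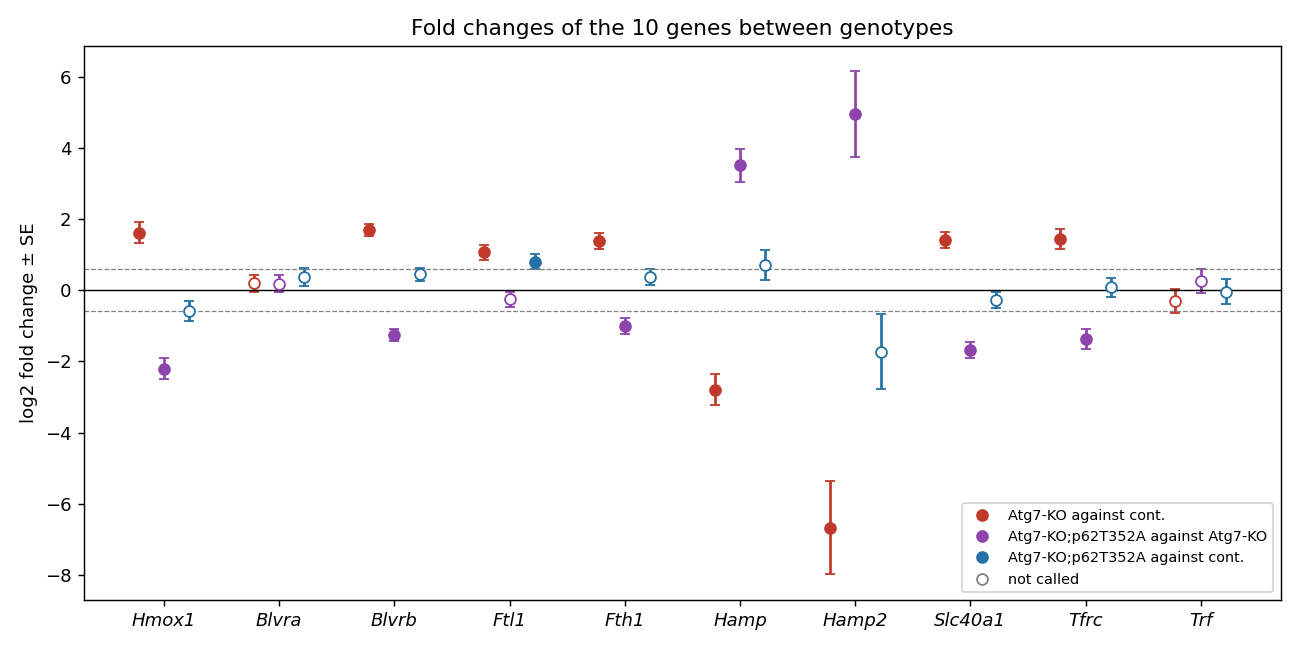
Log2 fold change (y axis) with its SE for the 10 genes in 3 comparisons, from the edgeR fit of all 9 mice. Filled points were called, open points were not, and dashed lines mark a fold change of 1.5. Atg7-KO against cont. and Atg7-KO;p62T352A against Atg7-KO lie on opposite sides of 0 for every gene but Blvra, and these comparisons share the Atg7-KO mice. Both were called for Hmox1, Blvrb, Fth1, Hamp, Hamp2, Slc40a1 and Tfrc. For Ftl1 only the first was called, and for Trf neither.

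Hepcidin transcripts were the members that fell. Mice carry a pair of hepcidin genes in tandem on chromosome 7, Hamp (chr7:30942368-30944032, minus strand) and Hamp2 (chr7:30922372-30924681, minus strand). Hamp encodes the iron-regulating hormone, whereas the Hamp2 peptide is not known to share that role. Hamp was at 592, 1341 and 1781 CPM in cont., at 211, 153 and 172 in Atg7-KO and at 2467, 1123 and 2496 in Atg7-KO;p62T352A mice. All Atg7-KO mice were below all others, and the other genotypes overlapped. Hamp fell 6.94-fold in Atg7-KO (log2 -2.79, SE 0.44, edgeR FDR 0.000977) and was 11.4-fold higher in Atg7-KO;p62T352A than in Atg7-KO livers (log2 3.51, SE 0.46, edgeR FDR 0.000301). Against cont. it was not called (log2 0.71, SE 0.42, edgeR FDR 0.297).

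Hamp2 varied far more between mice. It was at 102, 767 and 3861 CPM in cont., at 16.9, 15 and 14.3 in Atg7-KO and at 91.2, 508.5 and 828 in Atg7-KO;p62T352A mice. In cont. and in Atg7-KO;p62T352A the lowest mouse was the one numbered 1, which had few Xist counts. Atg7-KO mouse 1 was instead the highest of its genotype. Whether the Hamp2 spread goes with the Xist counts was not tested. Even the lowest mouse of the other genotypes, at 91.2, was above the highest Atg7-KO mouse. The fall in Atg7-KO was 102-fold (log2 -6.68, SE 1.31, edgeR FDR 0.00303), and without cont. mouse 3 the log2 change was -4.82 (FDR 0.00484). The level in Atg7-KO;p62T352A was 30.9-fold above Atg7-KO (log2 4.95, SE 1.21, edgeR FDR 0.0073), and the log2 difference was 4.29 without Atg7-KO;p62T352A mouse 3 (FDR 0.022). Against cont. the log2 difference of -1.73 was not called (SE 1.05, edgeR FDR 0.318) and turned to 0.13 without cont. mouse 3.

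Hamp2 made up 14.7, 36.4 and 68.4% of the hepcidin counts in cont., 7.40, 8.94 and 7.70% in Atg7-KO and 3.56, 31.2 and 24.9% in Atg7-KO;p62T352A mice. The Atg7-KO mice had a low and even share below every cont. mouse, while the Atg7-KO;p62T352A mice lay on both sides of it. In two-sided exact permutation tests the differences gave p = 0.1 for Atg7-KO against cont. and p = 0.4 for either other comparison. Because 3.87% of the 75-base stretches of Hamp are also in Hamp2, some reads could be placed on either gene. With both genes summed, an analysis added after the data were seen, hepcidin counts were 694, 2108 and 5642 CPM in cont., 228, 168 and 186 in Atg7-KO and 2559, 1632 and 3324 in Atg7-KO;p62T352A mice. The sum fell 14.5-fold in Atg7-KO (log2 -3.86, SE 0.67, edgeR FDR 0.00153) and was 12.9-fold higher in Atg7-KO;p62T352A than in Atg7-KO livers (log2 3.69, SE 0.66, edgeR FDR 0.00148). The summed hepatocyte markers were also lowest in Atg7-KO mice, and their part in the hepcidin result was not tested.

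The stretches before the start sites of the hepcidin genes are printed because these genes fell together while Hamp2 varied more widely. Each line gives 250 bases upstream of the start site from RefSeq (GRCm38.p6), 5′ to 3′. The gene spans given above are from GENCODE, where Hamp2 starts further upstream. The printed Hamp2 stretch thus lies within its GENCODE span, whereas that of Hamp lies almost wholly outside. Capitals mark GGCGCC, the core of a BMP response element, in Hamp and the aligned bases in Hamp2.
Hamp, chr7:30944030-30944279, minus strand: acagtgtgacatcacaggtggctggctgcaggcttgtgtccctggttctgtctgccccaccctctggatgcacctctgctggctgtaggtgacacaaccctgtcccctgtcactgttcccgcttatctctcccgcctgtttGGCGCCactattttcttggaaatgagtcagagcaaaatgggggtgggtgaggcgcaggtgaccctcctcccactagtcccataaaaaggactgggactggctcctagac
Hamp2, chr7:30924182-30924431, minus strand: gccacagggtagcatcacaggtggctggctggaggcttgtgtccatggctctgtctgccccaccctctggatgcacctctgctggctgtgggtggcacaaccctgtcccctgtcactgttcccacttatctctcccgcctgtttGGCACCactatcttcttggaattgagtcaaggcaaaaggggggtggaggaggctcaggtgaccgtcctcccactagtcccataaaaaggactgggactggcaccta

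Both sequences were 89.7% identical over 253 aligned columns, with 20 mismatches and 6 gap columns. One mismatch lies within the marked bases, G145A, which gives the Hamp base, its position counted from 1 at the first printed base of Hamp, and the Hamp2 base. In windows from 250 bases before to 50 after the start site, GGCGCC was found in 11.9% of 32851 RefSeq promoters on either strand, and TTCNNNGAA, the core of a STAT site, in 8.3%. Hamp held both, at -109 and -97 from its start site, and Hamp2 only TTCNNNGAA, at -94. Of the 10 genes, 7 had windows in the table, 10 in all. Hmox1, Slc40a1 and Trf had no window and were not searched. Among the 10 windows, TGACNNNGC, the core of the antioxidant response element bound by NRF2 and found in 12.4% of all promoters, was present only in that of Blvra, at -49. GGCGCC also occurred in a window of Tfrc, at -89, and CACGTG, present in 7.15% of all promoters, in no window of the 7 genes. A match or its absence describes these letters in this window and nothing more.

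**Figure D3:**
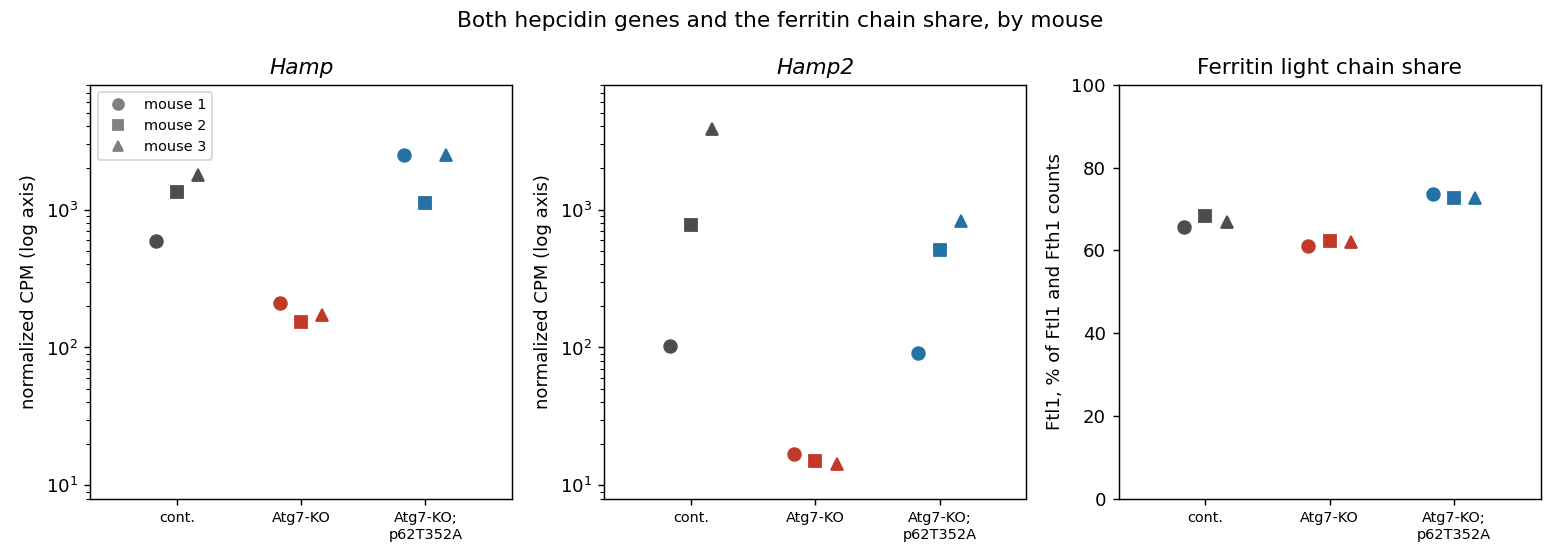
Normalized CPM of Hamp (left) and Hamp2 (middle), on log axes, and the share of Ftl1 in the summed Ftl1 and Fth1 counts (right, in %, linear axis from 0), for each of 3 mice per genotype. The Atg7-KO mice are the lowest in all 3 panels, and Hamp2 spreads from 102 to 3861 CPM among cont. mice.

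Levels were compared between genes as mean CPM per kilobase of the principal transcript. In cont. livers the order was Trf at 4419, Ftl1 at 3821, Hamp2 at 3609, Hamp at 3020, Fth1 at 1984, Blvrb at 107, Slc40a1 at 29.4, Blvra at 10.1, Hmox1 at 9.75 and Tfrc at 8.95 CPM per kilobase. Mice overlapped between each pair of neighbours among the first 5 and among the last 3 of these, and not between the other neighbours. In Atg7-KO livers Ftl1 led at 7998 and Fth1 followed at 5154, then Trf at 3597, Hamp at 435 and Blvrb at 346, while Hamp2 was at 35.2, below Slc40a1 at 78.4. There Hamp2 overlapped with Hmox1 at 30.2, and Hmox1 with Tfrc at 24.5, while the other neighbours did not. In Atg7-KO;p62T352A livers the highest were Ftl1 at 6680, Hamp at 4949 and Trf at 4294 CPM per kilobase, and the mice of Trf overlapped with those of both other genes. Reductase levels thus differed widely, Blvrb being the more abundant per length in every genotype.

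The genes whose levels followed each member most closely over the 9 mice were found by the root mean square difference of centred log2 CPM among 12820 genes, as a description without a test. Nearest to Hmox1 were Steap4, an endosomal metalloreductase, at 0.13 and Cd5l, a Kupffer cell gene, at 0.14, over a Hmox1 range of 2.81. Slc40a1 was nearest to Ppt1 at 0.087 and Rrm1 at 0.12, Tfrc to Ifi47 at 0.094 and Leprot at 0.14, and Blvrb to Twf2 at 0.12 and Tmem176b at 0.16. Ftl1 was nearest to Ssc4d at 0.091 and Ap1s1 at 0.11, Fth1 to Fuca2 at 0.094 and Wdr1 at 0.11, Blvra to Hint1 at 0.078 and Rps23 at 0.086, and Trf to Gcsh at 0.068 and Decr1 at 0.10. The hepcidin genes had looser neighbours. Hamp was nearest to Gm10012 at 0.27 and Klf9 at 0.32, and Hamp2 had no gene closer than 4930404H11Rik at 1.01 and Ptgds at 1.02, over a range of 8.06.

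Around these genes, 65 other heme and iron genes in 5 lists were all tested. In Atg7-KO against cont. 9 were called higher and 12 lower, 13.8% and 18.5% of the lists beside 21.6% and 22.1% of all tested genes. In Atg7-KO;p62T352A against Atg7-KO 15 (23.1%) were called higher and 11 (16.9%) lower, beside 24.7% and 26.2% of all tested genes. Against cont. it was 4 (6.15%) higher and 3 (4.62%) lower, beside 6.25% and 5.34%. These shares were near or below those of all tested genes. The median log2 fold changes of the lists were -0.04, -0.09 and -0.15. The count called higher in Atg7-KO was 17 without cont. mouse 1, and the count called higher against cont. in Atg7-KO;p62T352A was then 10 and, with any other single mouse left out, 0 or 1. The 3 called lower there were 5 without cont. mouse 1 and 0 without Atg7-KO;p62T352A mouse 3. Within the lists, the omission of cont. mouse 1 raised the number called higher in Atg7-KO to 4 of 12 for scavenging, 5 of 22 for hepcidin regulation and 7 of 16 for iron import and trafficking.

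Enzymes that make heme went the other way from Hmox1. Of 8, 4 (50%) were called lower in Atg7-KO, beside 22.1% of all tested genes: Alad, Uros, Cpox and Ppox. The median log2 fold change over the list was -0.74. Cpox passed narrowly (edgeR FDR 0.0447), and the count was 3 with any single mouse other than cont. mouse 1 or 3 left out. Ppox, which oxidises protoporphyrinogen in mitochondria, had the largest fall, 3.35-fold (40.7 ± 20.2 to 12.1 ± 1.56 CPM, edgeR FDR 0.00374). The same 4 enzymes were called higher in Atg7-KO;p62T352A against Atg7-KO, beside 24.7% of all tested genes. Alad, the second enzyme of the path, rose most there, 3.11-fold (edgeR FDR 0.000349). Fech, which inserts iron into protoporphyrin, was called 2.07-fold lower there (66.0 ± 2.55 against 137 ± 1.61 CPM, edgeR FDR 0.00505). It was also called 2.04-fold lower than in cont. (edgeR FDR 0.026), a call lost in 7 of 19 alternatives, among them the omission of any 1 of the Atg7-KO or Atg7-KO;p62T352A mice (FDR 0.0557 to 0.0931). Alas1, the rate-limiting step in liver, had 138 to 777 CPM in cont., with 257 to 323 in Atg7-KO mice and 224 to 527 in Atg7-KO;p62T352A mice, and was not called.

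Of 12 genes for scavenging and transport of heme and haemoglobin, 2 (16.7%) passed as higher and 3 (25%) as lower in Atg7-KO livers. The shares of all tested genes were 21.6% and 22.1%. Slc48a1, a heme transporter of endosomes and lysosomes, rose 6.93-fold (35.3 ± 12.1 to 245 ± 8.69 CPM, edgeR FDR 4.3e-05) and was 5.39-fold lower in Atg7-KO;p62T352A (45.5 ± 2.48 CPM, edgeR FDR 8.38e-05). Cd163, the macrophage receptor for haemoglobin bound to haptoglobin, fell 6.52-fold (14.7 ± 2.19 to 2.25 ± 0.49 CPM, edgeR FDR 0.00026), although most macrophage markers were higher in these mice. Mfsd7b, the heme exporter also called Flvcr1, rose 2.60-fold (edgeR FDR 0.00106). Haptoglobin (Hp) and hemopexin (Hpx) were at 2552 ± 346 and 4044 ± 382 CPM in Atg7-KO beside 2030 ± 213 and 2826 ± 1353 in cont., and neither was called.

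Of 22 genes of hepcidin regulation, 3 (13.6%) passed as higher and 2 (9.09%) as lower in Atg7-KO livers, beside 21.6% and 22.1% of all tested genes. Bmp6, the ligand through which liver iron raises hepcidin, was at 4.58, 1.89 and 1.87 CPM in cont., at 14.0, 16.7 and 19.5 in Atg7-KO and at 0.14, 0.70 and 0.33 in Atg7-KO;p62T352A mice. It was thus highest where Hamp was lowest. Bmp6 rose 5.82-fold in Atg7-KO (log2 2.54, edgeR FDR 0.0012; 3.15 without cont. mouse 1) and was 42.1-fold lower in Atg7-KO;p62T352A (log2 -5.40, edgeR FDR 8.17e-05), where 17 counts were seen in the 3 mice together; this log2 difference was -6.09 without Atg7-KO;p62T352A mouse 2. Against cont. it was 7.24-fold lower (edgeR FDR 0.0122), with a log2 difference of -2.86 that became -2.25 without cont. mouse 1 and -3.55 without Atg7-KO;p62T352A mouse 2, and the call was lost without Atg7-KO;p62T352A mouse 3 (FDR 0.0573). Sinusoidal endothelial cells are the main source of Bmp6 in liver, and their summed markers were at 263 to 323, 249.5 to 260.5 and 136 to 167 CPM in the same order of genotypes. Of the 6 markers, Lyve1 (2.97-fold) and Pecam1 (1.53-fold) were called higher in Atg7-KO, Stab2 (2.27-fold) lower, and 3 were not called. Of all tested genes, 21.6% were called higher and 22.1% lower there. In Atg7-KO;p62T352A livers, 4 of the 6 markers were called lower against Atg7-KO and 4 against cont., and none higher. Of all tested genes, 26.2% and 5.34% were called lower in these comparisons. The part of endothelial cells in the Bmp6 result was not tested. Id1, a target of BMP signalling, was also called higher in Atg7-KO, 2.76-fold (6.93 ± 2.98 to 18.9 ± 3.88 CPM, edgeR FDR 0.00536). Between the mutants, unlike Bmp6, it was not called (log2 -0.32, edgeR FDR 0.402). Smad6, Smad7 and Atoh8 of this list, which also respond to BMP signalling, were not called in Atg7-KO (log2 -0.01, 0.07 and -0.39, edgeR FDR 0.967, 0.808 and 0.256). Tfr2, a hepatocyte sensor of iron-loaded transferrin, fell 2.78-fold (470 ± 56.1 to 169 ± 12.8 CPM, edgeR FDR 0.000249) and was 2.12-fold higher in Atg7-KO;p62T352A than in Atg7-KO (edgeR FDR 0.000989). The largest rise of this list there was that of Fgl1, 2.57-fold (edgeR FDR 0.0387), a call lost without Atg7-KO;p62T352A mouse 2 (log2 0.86, FDR 0.164) and without any other mouse of those genotypes except Atg7-KO;p62T352A mouse 1 (FDR 0.0792 to 0.111). Id1 had the largest rise against cont. in Atg7-KO;p62T352A, 2.21-fold (edgeR FDR 0.0492), and that call was lost in 10 of 19 alternatives, among them the omission of cont. mouse 3 or of any 1 mouse of the other genotypes (FDR 0.0707 to 0.164).

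Of 16 genes for iron import, trafficking and ferritin turnover, 4 (25%) passed as higher and 2 (12.5%) as lower in Atg7-KO livers. The shares of all tested genes were 21.6% and 22.1%. Heph, a ferroxidase that works beside ferroportin, was at 1.66, 1.51 and 1.099 CPM in cont., at 30.7, 48.7 and 40.4 in Atg7-KO and at 1.07, 1.47 and 1.18 in Atg7-KO;p62T352A mice, a 27.4-fold rise and a 32.0-fold difference between the mutants (edgeR FDR 8.76e-06 and 9.44e-06). Lcn2, a carrier of bacterial siderophores that rises in inflammation, went from 12.3 ± 5.53 to 249 ± 86.8 CPM (20.5-fold, edgeR FDR 0.000209). In Atg7-KO;p62T352A it was still called 3.79-fold above cont. (46.2 ± 21.1 CPM, edgeR FDR 0.0298), a call lost in 7 of 19 alternatives, among them the omission of cont. mouse 2 or 3, Atg7-KO mouse 2 or 3, or Atg7-KO;p62T352A mouse 2 or 3 (FDR 0.0511 to 0.102). The 2 called lower became 1 without cont. mouse 2 or 3 or any Atg7-KO mouse. Slc39a14, a hepatocyte importer of iron not bound to transferrin, fell 3.08-fold (265.4 ± 90.1 to 86.3 ± 8.11 CPM, edgeR FDR 0.00107) and was 2.16-fold higher in Atg7-KO;p62T352A than in Atg7-KO (edgeR FDR 0.00566). Ncoa4, the receptor that delivers ferritin to autophagy, was at 145 ± 61.2, 170.4 ± 6.94 and 124 ± 24.3 CPM and was not called in any comparison.

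Of 7 genes for iron-regulatory proteins and their turnover, 1 was called in Atg7-KO, as lower (14.3%, beside 22.1% of all tested genes). It was the mitochondrial iron-sulfur protein gene Cisd1, 1.64-fold lower (edgeR FDR 0.0416). That call was lost in 12 of 19 alternatives, among them the omission of cont. mouse 1 or 3, of any Atg7-KO mouse or of Atg7-KO;p62T352A mouse 3 (FDR 0.0529 to 0.126). Without cont. mouse 2, 3 genes of this list were called lower. Aco1 and Ireb2, which encode the IRE-binding proteins, differed from cont. in Atg7-KO by -0.29 and -0.22 (log2, edgeR FDR 0.3 and 0.492).

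**Figure D4:**
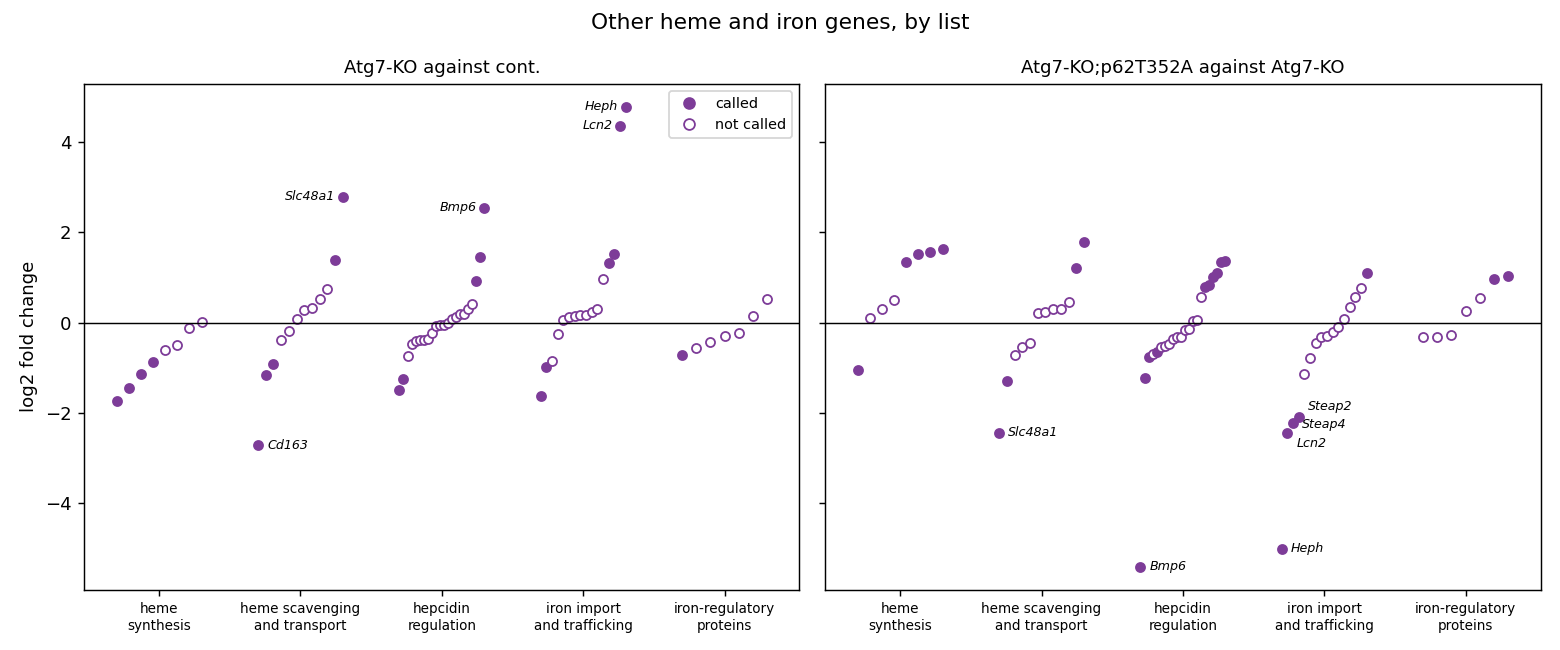
Log2 fold change (y axis) of the 65 other heme and iron genes in 5 lists (x axis), for Atg7-KO against cont. (left) and Atg7-KO;p62T352A against Atg7-KO (right), which share the Atg7-KO mice. Each point is 1 gene, ordered by value within its list, filled where called, and genes beyond 2 in size are named, with Heph at 4.78 and -5.0.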

How the data were processed

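The authors sequenced liver poly(A) RNA from 1 end (75 bp), and per the labels used Trim Galore, STAR and RSEM on the mm10 genome. Versions, annotation and strand setting are not given in the sources used here. Deposited values are expected counts from RSEM, unscaled, with a column for each mouse, and 3 labelled p62T352A mice were not analysed here. Counts were rounded, filtered with filterByExpr, scaled by TMM and fitted for all 3 genotypes in edgeR 4.0.16 (R 4.3.3, glmQLFit and glmQLFTest). SE came from the quasi-likelihood F statistic. The test was checked on simulated data. Alternatives were DESeq2 1.42.0, its size factors in edgeR, upper-quartile scaling, no low-count filter, a minimum of 10 counts in each mouse, a replicate block, the 20 most counted genes left out, FDR alone, glmTreat, each mouse left out, the mice numbered 1 left out and Hamp with Hamp2 summed. With 3 mice per genotype the precision is that of the spread between mice.

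The 10 genes and all lists were chosen with earlier results of these data known. Named were all 10 genes, the most risen and fallen called gene of each other list with a mean of at least 1 CPM, the 2 nearest genes of each member, and Atg7, Sqstm1 and Nqo1. A gene that this rule names is not reported here. Alas1, Aco1, Ireb2, Ncoa4, Hp, Hpx, Mfsd7b, Smad6, Smad7 and Atoh8, and the other called genes of heme synthesis, were named after their values were seen. Macrophage markers were Clec4f, Vsig4, Timd4, Cd5l, Marco, Adgre1, C1qa, C1qb, C1qc, Csf1r, Cd68, Trem2 and Gpnmb. Sequences came from GENCODE transcripts (GRCm38) and RefSeq promoters, read with Python 3.11.15 and Biopython 1.88.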

Additional observations from a re-analysis of the deposited data

How the results depend on the processing

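Both for Atg7-KO against cont. and between the mutants, the calls of single members held in every alternative that tested them. Only summing the hepcidin genes changed a count of members there by over 1.5 times, to 1 lower and 1 higher, since 2 genes became 1. The number of members called higher in Atg7-KO;p62T352A against cont., 1 by edgeR, was 0 with DESeq2's size factors, upper-quartile scaling, no filter, the replicate block or glmTreat, and 0 with the 20 most counted genes left out, which include Ftl1 and Trf. It was 0 to 1 with single mice left out and 2 without the mice numbered 1. The cause was not tested.

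Of the 65 other genes, the number called higher in Atg7-KO, 9, was 8 to 17 with single mice left out and 18 without the mice numbered 1. Against cont. in Atg7-KO;p62T352A, the number called higher, 4, was 2 with DESeq2's size factors, 2 with the replicate block, 0 with glmTreat, 0 to 10 with single mice left out and 10 without the mice numbered 1. The number called lower, 3, was 5 with DESeq2, 1 with glmTreat, 0 to 5 with single mice left out and 6 without the mice numbered 1. Over all genes this comparison called 870 higher and 743 lower, and 517 and 471 with the replicate block.

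Differences that changed sign were not called in the main analysis. With single mice left out, log2 values ranged for Trf from -0.54 to 0.049 (Atg7-KO against cont.), -0.12 to 0.47 (between the mutants) and -0.43 to 0.31 (Atg7-KO;p62T352A against cont.), and for Blvra from -0.15 to 0.35 between the mutants. Against cont. in Atg7-KO;p62T352A they ranged for Tfrc from -0.15 to 0.45, Hamp2 from -2.39 to 0.13, Cisd1 from -0.41 to 0.085 and Ppox from -0.58 to 0.076. Fech in Atg7-KO ranged from -0.17 to 0.36 and was -0.0058 with DESeq2 and -0.011 with its size factors. Without the mice numbered 1, Trf was at 0.032 in Atg7-KO and 0.52 in Atg7-KO;p62T352A against cont., where Slc40a1 was at 0.13, Heph at 0.0031 and Cisd1 at 0.21.

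Mice with the same number correlated at -0.20 to 0.32 (mean 0.15) in their deviations from the genotype mean. Of these 9 pairs, 6 were over 0.1. Mice with different numbers correlated at -0.34 to 0.18 (mean -0.07), and 4 of 18 pairs were over 0.1. In both other genotypes, 5 of 9 mice correlated best with their own number. The higher mean for the same number was not tested. The replicate block was not used in the main analysis. It changed no member's call except that of Ftl1 against cont. (FDR 0.0721). Upper-quartile scaling moved the median of all genes to 0.08 in Atg7-KO and -0.13 between the mutants.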
